A study of Drosophila melanogaster with 2 samples.

Results

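The genes described here encode 10 Drosophila proteins of chromatin insulators and boundaries: Chro, Cp190, BEAF-32, Dref, M1BP, CTCF, su(Hw), mod(mdg4), pzg and pita. They are 10 of the 13945 protein-coding genes annotated on 6 chromosome arms of dm6 in Ensembl release 115. They were taken by symbol, and they were chosen by a rule that already named Chro and Cp190 as bound in these data, so their peak calls and signals are given as a description, with no test. All 10 symbols were found. A region was assigned to a gene when its summit, the position of highest signal, lay in the gene body or within 1 kb of any of its transcription start sites (TSSs), a span called the footprint here.

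The regions come from chromatin immunoprecipitation with an anti-GFP antibody in whole Drosophila melanogaster embryos of both sexes, 0 to 24 h old, followed by sequencing. The embryos belong to a transgenic strain, CG9876-GFP, in which the homeodomain protein CG9876 carries GFP at its C terminus. The description in the labels gives the antibody as anti-GFP, whereas another label field names CG9876 as the antibody, so whether untagged CG9876 was also recovered is not settled by the labels. The series held 1 group of 2 biological replicates, with no treatment and no second genotype, and libraries of control chromatin were not analysed here. The promoter that drives the fusion, and whether untagged CG9876 remained in the strain, are not stated in the labels. The authors deposited a candidate list for each replicate and a combined candidate list, each of 30000 regions, and a reproducible list of 2433 peaks derived from them. Signal is the authors' value for a region, and each list may have its own scale. Ranks are taken within a list. Means, SDs and ratios of signal across the replicates carry any difference in scale between their lists. Whole embryos hold many cell types and stages, so occupancy in more cells and stronger occupancy in fewer cells cannot be told apart. The depth of each library is unknown, so no counting interval can be given.

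Insulators are DNA elements that limit contacts between enhancers and promoters, and the boundaries of chromosomal domains carry many of the same proteins. In flies, sequence-specific DNA-binding proteins such as BEAF-32, CTCF, Su(Hw), Pita, DREF and M1BP select the sites. Cofactors with a BTB domain, such as Cp190 and Mod(mdg4), are recruited by them, and the chromodomain protein Chromator and the zinc finger protein Putzig (Z4) mark the decondensed interbands of polytene chromosomes. BEAF-32, DREF and M1BP are also known at promoters of constitutively active genes, where BEAF-32 recognises CGATA and DREF recognises the DNA replication-related element (DRE), TATCGATA, which contains CGATA.

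Of the 6 members with CGATA or the DRE core within 100 bp of the summit of their strongest combined region, 5 are shown. They show where letters bound by 2 member proteins lie at member genes. In windows of the same length, CGATA occurred at 35.0% of all reproducible peaks and at 37.1% of coding TSSs. For reproducible peaks within 1 kb of a TSS the share was 41.4%. With 10 members, nothing is read from the difference. The other member with CGATA, pita, is not shown, and its region was not a reproducible peak. Each line holds 30 bases of the RefSeq Release 6 (dm6) sequence, 5′ to 3′ on the strand of the member gene. Capitals mark the DRE core in Cp190 and CGATA, or its reverse complement TATCG, in the others.
Chro: gttagtttaaagcTATCGacaggcaataca
Cp190: tatcgcatggcTATCGATAgctgccgagcg
Dref: aaatttccccagcTATCGattggtgatgca
CTCF: cgttgcgagaaatCGATAagcgccctcttc
pzg: aaataattacgtTATCGtaatgaacggcaa
The Chro site (3L:22878880-22878909, minus strand) lay in the 5′ UTR, with the centre of the motif 90 bp downstream of a TSS and 17 bp from the summit. The Cp190 site (3R:15275227-15275256, minus strand) spanned the TSS itself, and its DRE core was centred 32 bp from the summit. The Dref site (2L:9967230-9967259, minus strand) lay between the TSSs of Dref and RpL13, 48 bp from the summit and 15 bp upstream of the Dref TSS. The CTCF site (3L:7356516-7356545, minus strand) lay in an intron, 183 bp downstream of the TSS and 35 bp from the summit. The pzg site (3L:21285908-21285937, plus strand) lay 20 bp from the summit, 177 bp upstream of the pzg TSS, in the 5′ UTR of the neighbouring gene CG12974.

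Peaks of the reproducible list lay in the footprints of 8 of the 10 members, Chro, Cp190, BEAF-32, Dref, M1BP, CTCF, mod(mdg4) and pzg, beside 18.0% of all protein-coding genes by the same rule. In 7 of the 10, all but mod(mdg4) of these, the summit was within 1 kb of a TSS of the member, beside 15.8% of all genes. The combined candidate list, which reaches far into weak regions, held a region for 10 of 10 members and for 69.8% of all genes. The list of replicate 1 held a region for 9 of 10 members, all except su(Hw), beside 68.5% of all genes, and the list of replicate 2 for 10 of 10, beside 68.6%. When the 2433 strongest regions of each replicate were used in place of the reproducible list, 7 members had a summit in both replicates, beside 13.6% of all genes, and CTCF was the reproducible member that did not. Because the rule drew on these lists, nothing is read from the difference between the members and all genes.

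**Figure D1:**
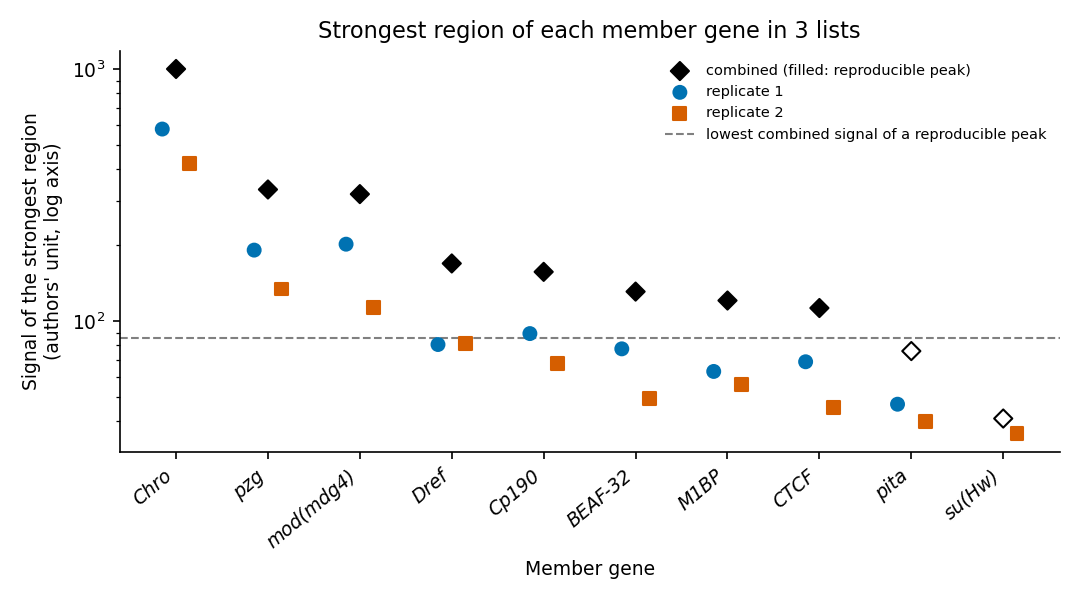
Signal of the strongest region in the footprint of each member (vertical axis, authors' unit, log scale) in the combined list (diamonds, filled for a reproducible peak), in replicate 1 (circles) and in replicate 2 (squares). In the combined list, Chro stands at 1001, 8 members lie above the weakest reproducible peak (85.4, dashed line), and pita and su(Hw) lie below it. The dashed line is a combined signal and does not apply to the points of the replicates.

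The members spanned a wide range of signal. The strongest combined region was 1001 at Chro and 41.0 at su(Hw), with a median of 143.8 over the 10 members, against a median of 50.4 over the 9727 protein-coding genes with any combined region. Among the reproducible members, CTCF had the lowest signal, 112.6, which lay above the lower quartile of the reproducible list (101.6). The member regions next below it were at pita (76.0) and at a downstream start of BEAF-32 (73.3), both under the weakest peak of the whole reproducible list (85.4). The 40 combined regions of members that were not reproducible ran from 27.8 to 76.0, with a median of 36.3.

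Chro encodes Chromator, a chromodomain protein of interbands and of the spindle matrix. Its gene (FBgn0044324, 3L:22873702-22878984, minus strand) held the region of highest signal among the members. The reproducible peak, 3L:22878726-22879061 with its summit at 22878877, lay in the 5′ UTR, 107 bp downstream of the 5′-most TSS. Its signal was 1001 in the combined list (rank 10 of 30000), 578.0 in replicate 1 (rank 8) and 420.3 in replicate 2 (rank 11). The replicate signals averaged 499 ± 111 (SD, n = 2), and the replicate summits were 13 bp apart. Both replicates placed Chro among their 11 strongest regions. The other 3 combined regions of Chro had signals from 29.0 to 48.1, and 2 of them lay in coding exons.

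The pzg gene (FBgn0259785, 3L:21286099-21290310, plus strand) encodes Putzig, a zinc finger protein found in a complex with Chromator and also with DREF. Its reproducible peak was listed at 97 bp wide (3L:21285894-21285990, summit 21285942), against a median width of 370 bp in the reproducible list. It lay 157 bp upstream of the TSS. The region was 350 bp wide in replicate 1 and 384 bp in replicate 2, the median widths of those lists, so neither replicate alone listed it as narrow. Signal was 332.7 in the combined list (rank 157), 191.2 in replicate 1 (rank 144) and 134.1 in replicate 2 (rank 245). The mean of the replicates was 163 ± 40.4 (SD, n = 2), with 8 bp between the summits. The combined region next in signal at pzg had 60.7, in a coding exon. In the combined list, Chro and pzg had the highest and the next highest signal of the 10 members.

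Cp190 (FBgn0000283, 3R:15270432-15275241, minus strand) encodes the BTB and zinc finger cofactor that many insulator proteins recruit. It was the only member with 2 reproducible peaks. The stronger peak, 3R:15275089-15275458 with its summit at 15275274, lay 33 bp upstream of the TSS. It had a signal of 156.7 in the combined list (rank 838), 89.2 in replicate 1 (rank 727) and 68.0 in replicate 2 (rank 1102), and the replicates averaged 78.6 ± 15.0 (SD, n = 2). The weaker peak, 3R:15275306-15275675 with its summit at 15275491, lay 250 bp upstream. Its signal was 127.6 in the combined list (rank 1225), 65.8 in replicate 1 and 61.9 in replicate 2, averaging 63.8 ± 2.76 (SD, n = 2). The intervals of the peaks overlap, so they may share reads. Their replicate summits were 3 bp apart at the stronger peak and 2 bp apart at the weaker.

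Dref (FBgn0015664, 2L:9964147-9967229, minus strand) encodes DREF, the activator of replication and growth genes that binds the DRE. The reproducible peak, 2L:9967107-9967476 with its summit at 9967292, lay 63 bp upstream of the TSS. Signal was 169.2 in the combined list (rank 718), 80.7 in replicate 1 (rank 874) and 81.5 in replicate 2 (rank 770). The mean of 81.1 ± 0.604 (SD, n = 2) was the closest agreement in signal among the 9 reproducible member peaks. The summits were less close, at 15 bp upstream of the TSS in replicate 1 and 84 bp upstream in replicate 2.

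M1BP (FBgn0037621, 3R:8729790-8731698, minus strand) encodes the zinc finger protein that binds Ohler motif 1 at core promoters. The reproducible peak, 3R:8731812-8732181 with its summit at 8731997, lay 299 bp upstream of the TSS. Signal was 120.6 in the combined list (rank 1364), 63.1 in replicate 1 (rank 1321) and 56.0 in replicate 2 (rank 1653), averaging 59.5 ± 5.0 (SD, n = 2). The replicates differed little in signal, and their summits were 36 bp apart.

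CTCF (FBgn0035769, 3L:7353578-7356713, minus strand) encodes the zinc finger protein of several bithorax complex boundaries. Its reproducible peak, 3L:7356310-7356679 with its summit at 7356495, lay in an intron, 218 bp downstream of the TSS. Signal was 112.6 in the combined list (rank 1549), 68.9 in replicate 1 (rank 1155) and 45.3 in replicate 2 (rank 2579), averaging 57.1 ± 16.7 (SD, n = 2). Replicate 2 placed the summit 101 bp nearer to the TSS than replicate 1, in the 5′ UTR, the widest gap among the 9 reproducible member peaks. The summit in the combined list also lay in an exon of the antisense RNA gene asRNA:CR45822, so it cannot be given to CTCF alone.

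BEAF-32 (FBgn0015602, 2R:14770469-14772630, plus strand) encodes the boundary element-associated factor that binds clusters of CGATA. The reproducible peak, 2R:14770270-14770639 with its summit at 14770455, lay 14 bp upstream of the 5′-most TSS. Signal was 130.9 in the combined list (rank 1173), 77.6 in replicate 1 (rank 945) and 49.3 in replicate 2 (rank 2148), averaging 63.4 ± 20.0 (SD, n = 2). A weaker combined region, 2R:14771103-14771472, had its summit 13 bp upstream of the 3′-most of the 3 annotated TSSs. It had a signal of 73.3 in the combined list (rank 3113), 45.2 in replicate 1 (rank 2191) and 32.8 in replicate 2 (rank 5090), and it was not in the reproducible list. Candidate regions lay at both ends of the BEAF-32 cluster of starts in both replicates, the upstream one with the higher signal in each.

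The members without a reproducible peak were pita and su(Hw). The pita gene (FBgn0034878, 2R:23548967-23554712, minus strand) encodes a zinc finger protein that binds bithorax boundaries and recruits Cp190. Its strongest region, 2R:23554356-23554725 with its summit at 23554541, lay in the 5′ UTR, 171 bp downstream of the TSS. Signal was 76.0 in the combined list (rank 2910, q-value 0.00498), 46.8 in replicate 1 (rank 2077) and 39.8 in replicate 2 (rank 3343). By rank in replicate 1 alone pita would lie within the 2433 strongest regions, and in replicate 2 it did not.

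The su(Hw) gene (FBgn0003567, 3R:14304455-14308589, minus strand) encodes the zinc finger protein that binds the gypsy insulator. Its only combined region, 3R:14307719-14308088 with its summit at 14307904, lay in a coding exon, 685 bp downstream of the TSS, with a signal of 41.0 (rank 11483, q-value 0.448). Replicate 2 listed that region at 35.8 (rank 4190), and replicate 1 listed no region in the footprint. A missing region shows that no candidate was listed there, and signal outside the listed regions was not measured.

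**Figure D2:**
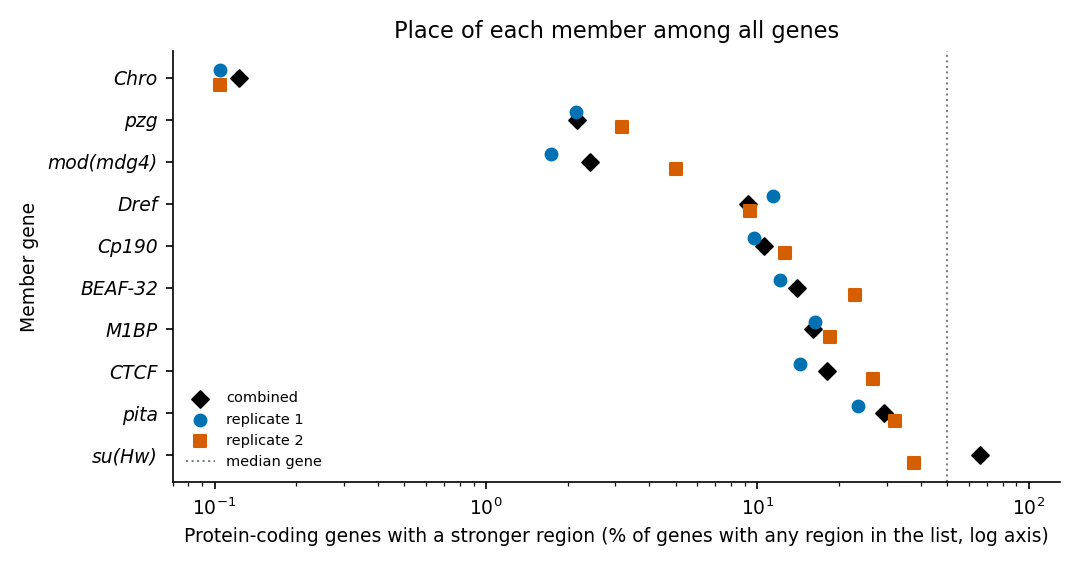
Share of protein-coding genes whose strongest region exceeds that of each member (horizontal axis, percent of genes with a region in that list, log scale), in the combined list (diamonds), replicate 1 (circles) and replicate 2 (squares), with the median gene as a dotted line. Chro lies near 0.1% in all 3 lists, while su(Hw) lies at 66.3% in the combined list and 37.7% in replicate 2.

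Each member was placed among all genes by the strongest region in its footprint. For Chro, 12 of the 9727 genes with a combined region had a higher signal (0.123%), and the share was 0.105% in replicate 1 and 0.105% in replicate 2. The shares for pzg were 2.17% combined, 2.15% in replicate 1 and 3.17% in replicate 2, and those for mod(mdg4) were 2.42%, 1.74% and 5.02% in the same lists. These 3 genes had the lowest shares of the 10 members in each of the 3 lists. The next 5 members ran close together, from Dref (9.25%) and Cp190 (10.5%) through BEAF-32 (14.0%) and M1BP (16.0%) to CTCF (18.0%) in the combined list. Their order changed between replicates: Cp190 preceded Dref in replicate 1, at 9.72% against 11.4%, and followed it in replicate 2, at 12.6% against 9.42%. BEAF-32 and CTCF lay further down in replicate 2, at 22.9% and 26.6%, than in replicate 1, at 12.1% and 14.4%. M1BP kept nearly the same place, at 16.3% in replicate 1 and 18.5% in replicate 2, and pita lay at 29.4% in the combined list.

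Replicate 1 gave the higher signal at 8 of the 9 reproducible member peaks, all but Dref. The log2 ratio of replicate 1 to replicate 2 ran from -0.02 at Dref to 0.83 at mod(mdg4), with 0.65 at BEAF-32 and 0.61 at CTCF. Over all 2363 reproducible peaks with a summit in a region of both replicates, the same ratio had a median of 0.09 and an SD of 0.61. The signal is in units of each list, so a ratio across lists carries any difference in scale between the replicates. Of the 9 ratios, that of mod(mdg4) was more than 1 SD from this median, and the other 8 were within it.

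A large gene offers more room for a summit, so members are also set beside genes of similar footprint, in 4 size classes of nearly equal number. BEAF-32 and M1BP, with footprints from 2.197 to 3.167 kb, were 2 of 2 members called in a size class where 13.8% of genes were called. Cp190, Dref, CTCF and pzg were called and su(Hw) was not in the next class, 3.169 to 5.998 kb, where 19.7% of genes were called. Chro and mod(mdg4) were called and pita was not in the class of largest footprints, from 5.999 kb, where 30.8% were called. No member fell in the class of smallest footprints, where 7.62% of genes were called. The body of mod(mdg4) is 26.6 kb long, against 1.91 kb for M1BP and 2.16 kb for BEAF-32.

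**Figure D3:**
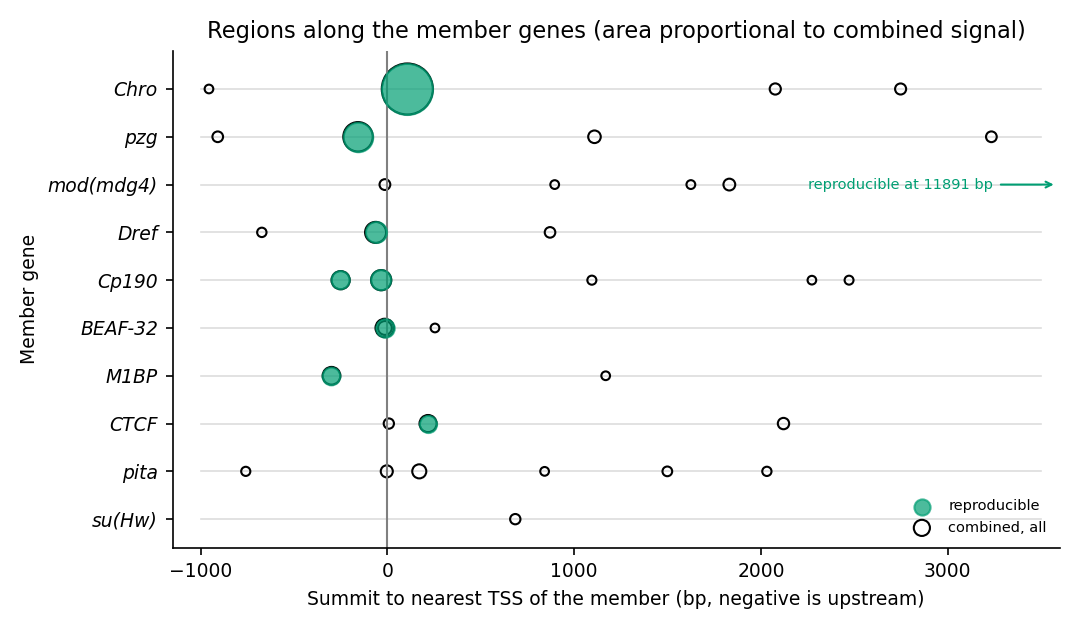
Combined regions along each member gene by the distance of the summit from the nearest TSS of the member (horizontal axis, bp, negative is upstream), with circle area proportional to the combined signal. Regions beyond the right edge of the axis, which are most of those of mod(mdg4), are not drawn. The reproducible peaks (filled) of 7 members lie between 299 bp upstream and 218 bp downstream of a TSS, while the mod(mdg4) peak lies 11891 bp downstream (arrow) and the remaining open circles are small.

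A TSS of another protein-coding gene lay within 1 kb of the summit for 5 of the 7 members with a promoter peak, against 748 of the 1615 reproducible promoter peaks in all (46.3%). All 5 neighbours are transcribed away from the member, on the opposite strand. Starts of such a divergent coding pair lay within 1 kb of the summit at 693 of the 1615 reproducible promoter peaks in all (42.9%), and with 7 members nothing is read from the difference. Chro diverges from Ssl1, which encodes a subunit of the general transcription factor TFIIH, with 105 bp between the TSSs. Cp190 diverges from CG4338 (281 bp), Dref from RpL13, a gene of the large ribosomal subunit (84 bp), M1BP from CG8202 (393 bp) and pzg from CG12974 (137 bp). BEAF-32 and CTCF had no other coding TSS within 1 kb, though BEAF-32 overlaps the antisense RNA gene asRNA:CR42254, which contains the summit in an exon.

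The summit was nearer to the neighbour in several of these pairs. At Dref it lay 63 bp from the Dref TSS and 21 bp from that of RpL13. At M1BP the distances were 299 bp to M1BP and 94 bp to CG8202, and at pzg they were 157 bp to pzg and 20 bp to CG12974, inside the 5′ UTR of CG12974. At Chro the summit lay 107 bp inside the gene and 212 bp from Ssl1. The peaks of Cp190 divided between the partners, the stronger lying 33 bp from Cp190 and 248 bp from CG4338, and the weaker 250 bp from Cp190 and 31 bp from CG4338. When a reproducible summit was required to lie nearer to a TSS of the gene than to a TSS of any other coding gene, 4 of 10 members remained, Chro, Cp190, BEAF-32 and CTCF, beside 11.9% of all genes. Peak lists carry no strand, so they do not say which gene of a divergent pair a region belongs to.

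The stretch between the TSSs of Dref and RpL13 is printed because it holds the reproducible summit and is the shortest of these intergenic stretches. It covers 2L:9967230-9967312 (83 bases, 51.8% GC) and is written on the minus strand, the strand of Dref, with TATCG in capitals. Read 5′ to 3′, it starts at the RpL13 end and finishes beside the Dref TSS.
Dref to RpL13: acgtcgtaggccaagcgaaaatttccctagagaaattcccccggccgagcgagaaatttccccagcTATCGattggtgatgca
The stretch between Cp190 and CG4338 is printed because it holds both reproducible summits of Cp190. It covers 3R:15275242-15275521 (280 bases, 28.9% GC), on the minus strand, the strand of Cp190, and its capitals mark TATCG near the Cp190 end. Read 5′ to 3′, it starts at the CG4338 end and finishes beside the Cp190 TSS.
Cp190 to CG4338: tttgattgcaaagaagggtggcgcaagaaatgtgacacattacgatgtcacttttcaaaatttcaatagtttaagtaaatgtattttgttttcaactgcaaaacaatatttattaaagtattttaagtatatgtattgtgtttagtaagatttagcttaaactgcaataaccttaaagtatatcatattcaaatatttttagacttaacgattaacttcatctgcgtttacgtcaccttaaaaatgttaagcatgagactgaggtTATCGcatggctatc
The printed Cp190 and Dref stretches differ in composition, the Cp190 stretch being rich in A and T and the Dref stretch close to even. The stretch between M1BP and CG8202 was also poor in G and C (27.3%), and that between pzg and CG12974 was rich (60.3%). The pzg stretch does not hold the reproducible summit, and the 201 bp window around that summit had 43.3% GC. Windows of that length had 39.3% at the stronger Cp190 summit, 31.3% at the weaker and 42.8% at Dref. The stretch between Chro and Ssl1 had 51.0% and does not hold the Chro summit.

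The mod(mdg4) gene (FBgn0002781, 3R:21350846-21377401, minus strand) encodes BTB proteins of many isoforms, among them the partner of Su(Hw) at the gypsy insulator. Its isoforms share 5′ exons and receive alternative 3′ exons by trans-splicing, and the annotation lists 23 donor units as separate pre-mod(mdg4) genes, 9 on the plus strand and 14 on the minus strand. The reproducible peak was 150 bp wide, 3R:21365442-21365591 with its summit at 21365510, in an intron 11891 bp downstream of the mod(mdg4) TSS. The region was 130 bp wide in replicate 1 and 384 bp in replicate 2. Signal was 318.9 in the combined list (rank 179), 201.8 in replicate 1 (rank 122) and 113.3 in replicate 2 (rank 391), averaging 158 ± 62.6 (SD, n = 2). Replicate 1 was the higher, and the replicate summits were 22 bp apart.

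**Figure D4:**
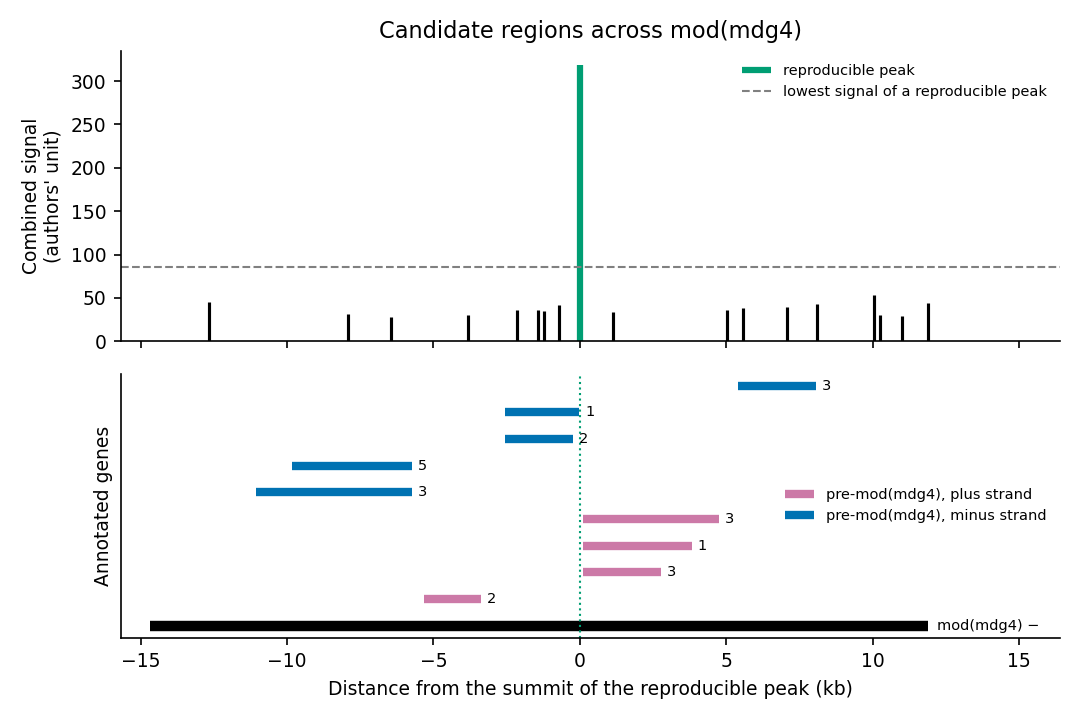
Upper panel, signal of each combined region in the footprint of mod(mdg4) (authors' unit) by its distance from the reproducible summit (kb), with the weakest signal of any reproducible peak dashed. Lower panel, the mod(mdg4) gene and the pre-mod(mdg4) units by strand, where the figure beside each bar counts annotated units of the same span. The reproducible peak at 318.9 stands alone above the dashed line, between units transcribed away from each other.

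Although far from the annotated start of mod(mdg4), this summit was close to the starts of its donor units. Of the 23 pre-mod(mdg4) genes, 10 had a TSS within 1 kb of it, and these point away from it on both strands. The 7 on the plus strand share a TSS 99 bp away, and of the 3 on the minus strand pre-mod(mdg4)-E starts 22 bp away and pre-mod(mdg4)-C and pre-mod(mdg4)-AB start 220 bp away. At the annotated mod(mdg4) TSS itself a combined region was listed 13 bp upstream with a signal of 44.6 (rank 9243), below the reproducible list. The 17 combined regions other than the reproducible peak ran from 27.8 to 53.5.

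The stretch between the pre-mod(mdg4)-E start and the plus-strand start is printed because it holds the summit of the only reproducible member peak more than 1 kb from a TSS of the member. It covers 3R:21365489-21365608 (120 bases, 44.2% GC), on the plus strand, and none of the 9 motifs searched lies in it, so it has no capitals.
mod(mdg4) donor units: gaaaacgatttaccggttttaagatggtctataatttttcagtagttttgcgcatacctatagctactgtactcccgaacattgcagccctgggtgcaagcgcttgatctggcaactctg

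Motifs of the member proteins and of homeodomains were searched as letters, on either strand, in 201 bp windows centred on the summit of each member's strongest combined region. The windows of pita and su(Hw) are not at reproducible peaks. The DRE core TATCGATA occurred at 1 of 10 members, Cp190, against 6.04% of all 2433 reproducible peaks and 6.45% of 19252 coding TSSs in windows of the same length. Its share was 9.04% of the reproducible peaks within 1 kb of a TSS and 1.52% of combined regions. The shorter CGATA, which overlaps the DRE core, occurred at 6 of 10, Chro, Cp190, Dref, CTCF, pzg and pita, against 35.0% of reproducible peaks and 37.1% of TSSs. Its share was 41.4% of the reproducible peaks within 1 kb of a TSS and 22.1% of combined regions. Among the 9 reproducible member peaks alone, 5 held CGATA. Cp190 held CGATA 3 times, counting the DRE core on each strand, and the window of BEAF-32, whose protein binds CGATA, did not hold it. Within 200 bp of the BEAF-32 summit, however, a DRE core occurred, against 8.47% of reproducible peaks at that width. With 1 mismatch allowed the DRE core occurred at 5 members, against 17.5% of reproducible peaks.

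GGTCACACT, Ohler motif 1 of M1BP, occurred at 0 of 10 members, against 2.38% of reproducible peaks. AGGTGGC, a core of the CTCF motif, also occurred at 0 of 10, against 4.56%. TGCATA, a core of the Su(Hw) motif, occurred at mod(mdg4), with 2 matches, and at pita, against 14.6% of reproducible peaks. GAGAG, bound by GAGA factor, occurred at pita, against 25.7%, and the E-box CANNTG at Cp190, CTCF and pita, against 64.3%. The homeodomain core TAATTA occurred at pzg, centred 28 bp from the summit, against 11.3%, and the paired-class palindrome at 0 of 10 members, against 1.52%. With 10 windows each count is small, and a match shows only that the letters are there.

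Among the genes of other insulator DNA-binding proteins, 11 of 12 listed were found in the annotation, and 2 of them had a reproducible peak in the footprint, beside 18.0% of all genes. Each of the 2 had a reproducible summit within 1 kb of a TSS, beside 15.8% of all genes. Trl, the gene of GAGA factor, held 3 reproducible peaks, the strongest in an intron 1540 bp upstream of the nearest TSS, with a signal of 528.8 when combined, 300.6 in replicate 1 and 230.7 in replicate 2. The gfzf gene, of a zinc finger protein known with M1BP at promoters, had a peak 205 bp upstream with a signal of 97.5 in the combined list and 70.9 in replicate 1, and its strongest region in replicate 2 lay elsewhere in the footprint, at 33.4. No combined region lay in the footprints of Ibf1, Ibf2, Elba1 and Elba3, and 7 of the 11 had one, with a median signal of 62.0.

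Among 16 genes of cohesin, condensin and other partners of insulator proteins, 7 had a reproducible peak, beside the same 18.0% of all genes, and 15 a combined region, with a median signal of 77.0. These genes were not set beside genes of similar footprint, and nothing is read from the difference. All 7 had a reproducible summit within 1 kb of a TSS, beside 15.8% of all genes. The places given below are those of the strongest region of each gene. JIL-1, the histone H3 kinase that binds Chromator, had a signal of 272.3 when combined, 100.7 in replicate 1 and 158.0 in replicate 2, in an intron. The gene of the RNA-binding insulator regulator Shep (shep) had 195.0 in the combined list, also in an intron. At promoters, fs(1)h, a BET family gene, had 171.4, Top2, of topoisomerase II, 138.8, E(bx), of the NURF remodelling complex, 120.4, SMC1, of cohesin, 101.2, and Cap-H2, of condensin II, 90.0. By the strongest region in each list, replicate 2 was the higher at 5 of these 7 genes. They were JIL-1, Top2, E(bx), SMC1 (29.0 in replicate 1 and 70.8 in replicate 2) and Cap-H2. At fs(1)h the strongest region of replicate 2 was a different one, in an intron. These values are not matched at 1 summit as those of the member peaks were, and the lists may differ in scale. Nothing is therefore read from which replicate was the higher. The highest of these signals, at Trl and JIL-1, lay below that of Chro.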

How the data were processed

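Coordinates are in dm6, counted from 1. The deposited narrowPeak lists give a signal value for each region, in a unit the authors chose, and the −log10 of an authors' q-value. Each replicate was listed from its own alignments against a control, both replicates were combined for a further list, and the reproducible list came from these by irreproducible discovery rate, per the deposited text files. Chromatin was sonicated to a range of 200 to 800, per the labels. In the sources used here, aligner, peak caller and depth are not given. The reproducible and combined lists give the same signal for a shared region, and the q-value was the lowest of the combined list at all 9 reproducible member peaks, so regions were ranked by signal.

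The members and gene lists were chosen with earlier results of these data known, so counts and levels are descriptions, with no test. The text names all 10 members, coding genes with a TSS within 1 kb of their reproducible summits, and listed genes with a reproducible peak. Gene models came from Ensembl release 115, and sequences from RefSeq on the same assembly. Of all protein-coding genes, 18.0% had a reproducible summit in the footprint. Alternatives changed the TSS distance, the overlap rule, the list, the replicate and the motif. Python 3.11.15, numpy 2.4.6, pandas 2.3.3 and matplotlib 3.10.9 were used, and the assignment and motif search were tested on simulated data.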

Additional observations from a re-analysis of the deposited data

How the results depend on the processing

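The count of members with a reproducible peak stayed at 8 with TSS distances of 500 bp and 2 kb and with any overlap of the region, and was 6 among the reproducible peaks above the median signal, where CTCF and M1BP were lost. With 1 replicate left out, the 2433 strongest regions of the other replicate stood in for the reproducible list, with no filter for reproducibility. The count of members with such a region ranged from 7 to 9, where pita was gained without replicate 2 and CTCF was lost without replicate 1. The same substitution applies to the shares of all genes and the counts of listed genes given below with 1 replicate left out. Leaving out Chro and Cp190, an alternative chosen after seeing the data, gave 6 of 8, and requiring the member's TSS to be the nearest, also chosen then, gave 4. The share of all genes moved from 18.0% to 16.5% at 500 bp, 20.7% at 2 kb, 18.8% with any overlap and 10.05% above the median signal, and lay between 17.4% and 18.0% with 1 replicate left out. For the other insulator genes the count of 2 became 1 (Trl) above the median signal, and 1 to 2 with 1 replicate left out. For the architectural genes the count of 7 became 4 above the median signal, and 5 to 8 with 1 replicate left out. The median rank of the members' strongest regions, 1005.5, ranged from 909.5 to 1377.5 with 1 replicate left out. The DRE count of 1 became 2 within 200 bp, where BEAF-32 was gained, 5 with 1 mismatch and 6 with CGATA. Of 39 alternative ranks of single members, 27 were labelled as moving by no more than 1 SD between replicates. That SD came from the same replicate ranks that it was used to judge, so no stability is read from the count. For su(Hw), with no rank in replicate 1, no SD existed and every alternative was counted as within it. Its rank nevertheless went from 11483 in the combined list to 4190 in replicate 2. The causes were not tested, and the unknown depth leaves the limit of detection unknown. Both replicates belong to 1 group, so no paired analysis was possible.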
